A study of Mus musculus with 6 samples.

Results

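The genes described here are 10 that answer to or act in nuclear factor kappa B (NF-kappa B) signalling: the inhibitors and feedback genes Nfkbia, Nfkbiz, Bcl3 and Tnfaip3, the subunit genes Nfkb2 and Relb, the target genes Birc3 and Icam1, and the chemokine genes Cxcl16 and Cx3cl1. They were taken by gene name from the deposited count table, where each name matched 1 of 54532 genes, and all 10 passed the filter on low counts. The 10 were chosen with earlier results of these data known. Shares of all genes given beside their counts are therefore descriptions only. The table holds polyA RNA-seq counts of mouse intestinal epithelium from 6 libraries. In 3 of them the mice had been gavaged with the yeast Candida albicans, and in the other 3 with phosphate-buffered saline (PBS), every 3 days for 2 weeks. All mice, PBS controls included, are labelled Apoe-/-, a genotype that lacks functional apolipoprotein E and is prone to atherosclerosis, so no library shows the response of mice with intact Apoe. Strain, sex, age, the stretch of intestine and whether each library came from 1 mouse were not given in the sources used here, and the p-values below measure only the spread between these libraries.

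NF-kappa B proteins are transcription factors held in the cytoplasm by inhibitors of the I kappa B family. In the canonical branch, receptors for TNF, IL-1 and microbial products activate a kinase complex that marks I kappa B alpha for destruction and frees dimers of RelA, c-Rel and p50. In the non-canonical branch, receptors such as RANK and the lymphotoxin beta receptor lead to processing of p100, the product of Nfkb2, and to dimers of p52 with RelB. Several of the first genes to be transcribed encode the pathway's own brakes, which is why their RNA is often read as a trace of recent pathway activity. In the gut epithelium the pathway is known for guarding cell survival and for the release of chemokines that draw in immune cells.

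The loci carry the mm10 coordinates of the table. Promoter windows of 300 bases (250 before the start site and 50 from it, RefSeq, GRCm38.p6) were at hand for 7 of the 10 genes and are shown because 4 of these hold the kappa B consensus, the 10-base motif that NF-kappa B dimers bind. The 4 windows are printed 5′ to 3′ with the consensus, on either strand, in capitals, and that of Birc3, which has no match, stands beside them.
Nfkbia, chr12:55492598-55492897, minus strand: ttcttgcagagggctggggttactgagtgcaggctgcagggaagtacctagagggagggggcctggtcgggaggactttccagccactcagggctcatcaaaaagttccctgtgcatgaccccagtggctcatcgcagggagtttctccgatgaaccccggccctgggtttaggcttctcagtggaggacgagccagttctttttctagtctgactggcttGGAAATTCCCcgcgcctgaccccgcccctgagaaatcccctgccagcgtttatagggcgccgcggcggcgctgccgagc
Tnfaip3, chr10:19015361-19015660, minus strand: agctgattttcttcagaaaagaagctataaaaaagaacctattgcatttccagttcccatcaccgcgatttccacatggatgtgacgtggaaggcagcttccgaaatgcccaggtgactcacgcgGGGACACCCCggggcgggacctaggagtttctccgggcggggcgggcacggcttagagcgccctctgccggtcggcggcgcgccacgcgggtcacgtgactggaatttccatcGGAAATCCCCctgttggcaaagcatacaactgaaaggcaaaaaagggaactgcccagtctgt
Nfkb2, chr19:46304487-46304786, plus strand: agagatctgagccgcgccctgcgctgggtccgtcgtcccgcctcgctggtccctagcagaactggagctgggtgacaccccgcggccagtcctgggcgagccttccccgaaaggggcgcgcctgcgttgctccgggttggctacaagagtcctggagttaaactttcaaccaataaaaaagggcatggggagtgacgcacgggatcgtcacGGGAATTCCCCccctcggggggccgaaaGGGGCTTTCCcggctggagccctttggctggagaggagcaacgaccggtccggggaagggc
Bcl3, chr7:19822706-19823005, minus strand: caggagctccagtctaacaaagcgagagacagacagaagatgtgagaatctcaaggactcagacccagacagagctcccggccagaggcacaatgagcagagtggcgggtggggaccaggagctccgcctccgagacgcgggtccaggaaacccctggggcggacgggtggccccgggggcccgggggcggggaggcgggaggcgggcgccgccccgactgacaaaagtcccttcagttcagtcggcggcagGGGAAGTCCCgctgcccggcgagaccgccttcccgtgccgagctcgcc
Birc3, chr9:7873121-7873420, minus strand: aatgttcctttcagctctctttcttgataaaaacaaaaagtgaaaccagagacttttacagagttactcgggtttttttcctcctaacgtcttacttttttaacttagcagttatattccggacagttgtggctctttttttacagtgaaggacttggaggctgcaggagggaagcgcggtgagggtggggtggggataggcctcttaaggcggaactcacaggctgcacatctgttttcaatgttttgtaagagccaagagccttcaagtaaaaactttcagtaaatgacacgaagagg
In Nfkbia the match runs from position -29 to -20 relative to the start site, and in Bcl3 from 3 to 12. RefSeq gives Tnfaip3 2 start sites, and the window printed is the one with matches, at -125 to -116 and at -12 to -3, while its other window has none. Nfkb2 has 3 windows. The one printed, which spans the start of the gene as the table gives it, holds overlapping matches between -39 and -29, 1 of which reads as the consensus on both strands, and a further match at -11 to -2. A window further into the gene holds matches at -236 to -227 and at 11 to 20 of its own start site, and the last of these lies again at -225 to -216 in the remaining window, which overlaps it. The pattern searched was GGGRNWYYCC, where R is A or G, N any base, W is A or T and Y is C or T. No match to these letters lies in the windows of Birc3, Icam1 and Cx3cl1. Stretches that differ by 1 base, such as tggaaattcc in the Icam1 window, were not counted, so a window without a match can hold a looser site. The consensus was present in 57.1% of the 7 genes, in 6.18% of the 11424 tested genes that have a window and in 21.6% of 116 other genes of the pathway lists. These are descriptions of letters, for genes chosen as known members and targets of the pathway.

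Among the 10 genes, Relb, Birc3, Tnfaip3 and Cx3cl1 were higher with Candida albicans at an unadjusted p under 0.05, and none passed the threshold after adjustment. In edgeR's quasi-likelihood test 0 of the 10 reached an adjusted p under 0.05, and 0% of all 16313 tested genes did. At an unadjusted p under 0.05 there were 4 of 10, all higher, where 13.4% of all tested genes were called higher and 29.6% in either direction. With a looser adjusted threshold of 0.1, Relb, Birc3 and Tnfaip3 were called, 3 of 10 and all higher, where 6.61% of tested genes were called higher and 6.04% lower. The groups did not overlap for 5 of 10 (the 4 genes above and Nfkbia), all higher, where 17.6% of tested genes did not overlap and were higher, 18.1% did not overlap and were lower, and 35.6% did so in either direction. The median log2 fold change of the 10 was 0.38, with 7 of 10 positive where 39.5% of tested genes were, and that of all tested genes was -0.16. The count of 0 depended on the tool and on 1 library. limma-voom also gave 0 of 10 and the DESeq2 Wald test gave 3 (Relb, Birc3 and Tnfaip3), where it called 20.2% of all genes. Without PBS replicate 1, edgeR called the same 3 genes and 15.7% of all genes, and without replicate 1 of both groups it called them with 13% of all genes. Relb and Birc3 were also called by limma-voom with quality weights, as were 15.7% of all genes. With library totals in place of TMM scaling the median of all genes moved to -0.45 and the log2 fold changes of Tnfaip3, Birc3, Cx3cl1 and Nfkb2 to 0.36, 0.37, 0.24 and 0.0102. At an unadjusted p under 0.05 only Relb of the 10 was then called, with 6238 of all 16313 genes in either direction. With each library left out in turn, 3 to 7 of the 10 were called at that level. The 7 came without PBS replicate 1, where 5621 of 16733 genes were called in either direction. Without PBS replicate 2 there were 3, where 4371 of 17072 genes were called. Counts in bulk tissue cannot separate fewer cells of a type from less RNA per cell.

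**Figure D1:**
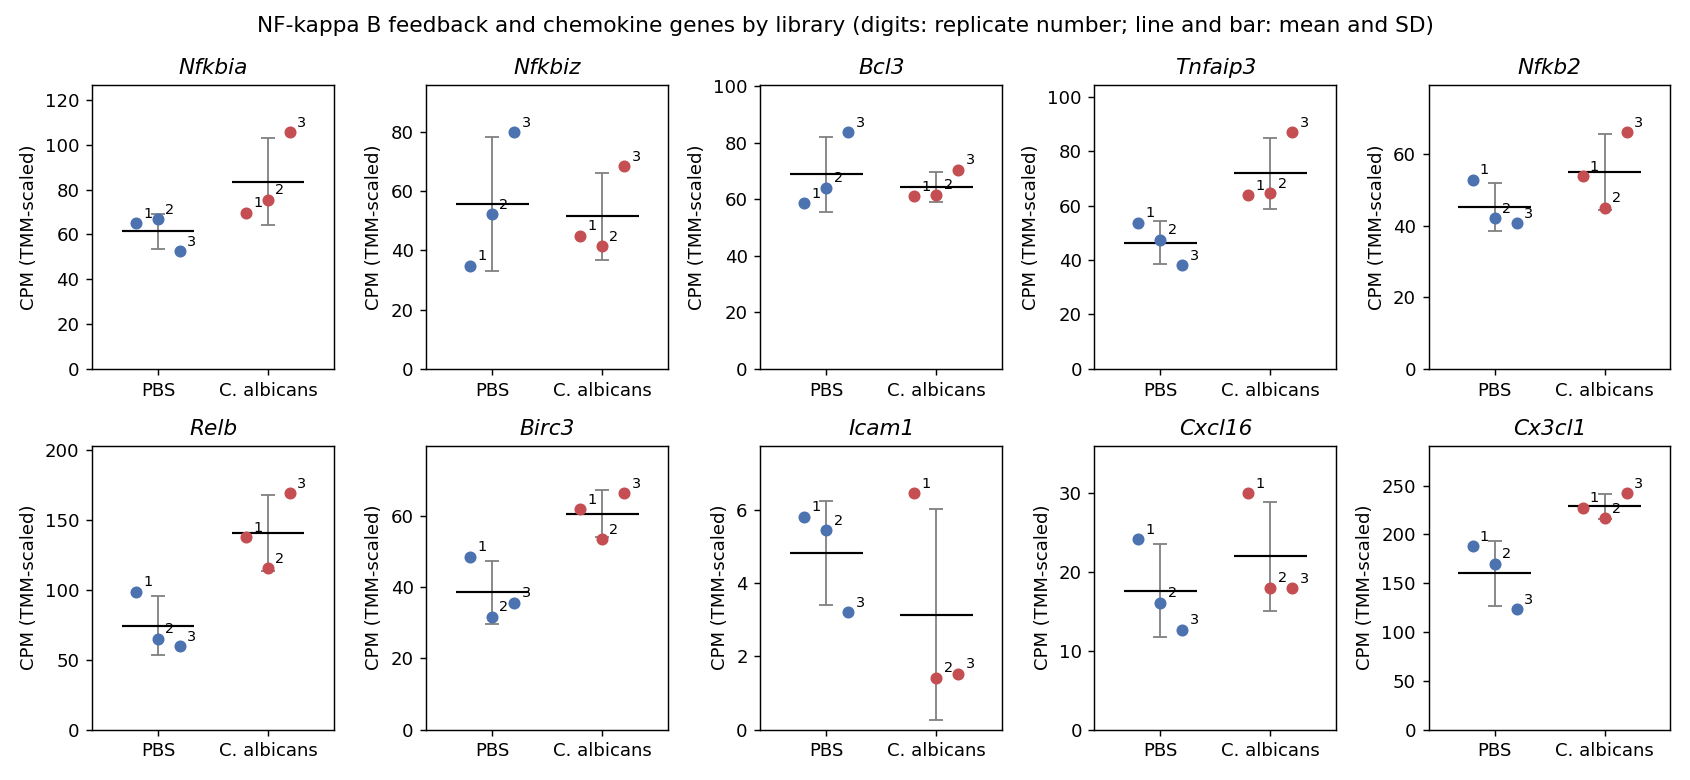
CPM (on TMM-scaled library totals) of each of the 10 genes in the 3 PBS (blue) and 3 Candida albicans (red) libraries, with the replicate number beside each point, the group mean as a line and the SD as a bar. Each axis starts at 0. The groups do not overlap for Nfkbia, Tnfaip3, Relb, Birc3 and Cx3cl1, and they overlap for the other 5.

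Relb had the largest log2 fold change of the 10, and its partner Nfkb2 differed less. Relb encodes RelB, the subunit of the non-canonical branch (ENSMUSG00000002983, chromosome 7, 19606217 to 19629438, minus strand). It was counted at 98.5, 64.9 and 59.6 CPM (read counts on a TMM-adjusted common scale) in PBS replicates 1 to 3 and at 137, 115 and 169 CPM in Candida albicans replicates 1 to 3. All 3 Candida albicans libraries lay above the highest PBS library, and PBS replicate 1 stood above the other PBS libraries. The means were 74.3 ± 21.1 and 141 ± 26.9 CPM (SD, n = 3 each), a log2 fold change of 0.92 with a 95% interval from 0.35 to 1.48 and an adjusted p of 0.087 in edgeR's test. Its adjusted p was 0.0081 in the DESeq2 Wald test, and its log2 fold change was 1.30, with an adjusted p of 0.020 in edgeR's test, without PBS replicate 1. Over all alternatives the log2 fold change of Relb lay between 0.65 and 1.31 and its adjusted p between 0.0081 and 0.24.

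Nfkb2, which encodes p100 and p52 (ENSMUSG00000025225, chromosome 19, 46304737 to 46312090, plus strand), had 52.9, 42.1 and 40.7 CPM with PBS and 53.9, 45.1 and 66.2 CPM after Candida albicans. The ranges overlapped, and Candida albicans replicate 3 was the highest library. Its log2 fold change was 0.28 (95% interval -0.14 to 0.71, adjusted p 0.31 in edgeR's test) and 0.53 without PBS replicate 1. Nfkb2 overlaps the gene Psd by 4 bases on the opposite strand, and Psd had 68% as many reads.

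The subunit genes of the canonical branch had close means in the 2 groups. Rela had 45.5 ± 0.20 CPM with PBS and 43.5 ± 4.53 CPM after Candida albicans, and Nfkb1 had 69.5 ± 10.8 and 76.1 ± 1.23 CPM. Rel, which encodes c-Rel, had 11.4 ± 2.85 and 13.6 ± 2.83 CPM. Their log2 fold changes were -0.07, 0.13 and 0.25 in that order, with adjusted p values of 0.70, 0.52 and 0.51 in edgeR's test, and each changed sign under at least 1 other scaling. A ratio of counts within a library does not depend on the scaling between libraries. For Relb over Rela it was 2.16, 1.43 and 1.31 with PBS and 2.88, 2.99 and 3.84 with Candida albicans. The groups did not overlap, and the exact permutation p was 0.1, the smallest that 3 against 3 can give, or 0.15 adjusted over 3 ratios chosen after their values were seen. The ratio of Nfkb2 to Rela was 0.99 ± 0.14 with PBS and 1.27 ± 0.21 with Candida albicans, with overlap (exact permutation p = 0.2, two-sided). The third ratio, Birc3 over its neighbour Birc2, was 0.73 ± 0.15 and 1.03 ± 0.10 without overlap (exact permutation p = 0.1, two-sided).

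The 4 inhibitor and feedback genes were divided, with Tnfaip3 and Nfkbia higher in every Candida albicans library and Nfkbiz and Bcl3 close between the groups. Tnfaip3 encodes A20, a ubiquitin-editing enzyme that shuts down signalling from TNF and Toll-like receptors (ENSMUSG00000019850, chromosome 10, 19000910 to 19015657, minus strand). It had 53.7, 47.4 and 38.1 CPM with PBS and 63.8, 64.6 and 86.9 CPM after Candida albicans. The groups did not overlap, and its log2 fold change was 0.63 (95% interval 0.19 to 1.07, adjusted p 0.098 in edgeR's test). Without PBS replicate 1 the log2 fold change was 0.87 and edgeR's adjusted p 0.044, in a fit that called 15.7% of all genes. Over all alternatives (edgeR, limma-voom and DESeq2) the adjusted p of Tnfaip3 lay between 0.031 and 0.29.

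Nfkbia encodes I kappa B alpha, the inhibitor that NF-kappa B resynthesises to end its own activity (ENSMUSG00000021025, chromosome 12, 55489410 to 55492647, minus strand). It had 65.0, 66.7 and 52.5 CPM with PBS and 69.8, 75.4 and 106 CPM after Candida albicans. The lowest Candida albicans library lay just above the highest PBS library, and replicate 3 stood far above the others. Its log2 fold change was 0.45 (95% interval -0.01 to 0.90, adjusted p 0.17 in edgeR's test), and 0.25 without Candida albicans replicate 3. It was 0.16 with a covariate for smooth muscle markers.

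Nfkbiz encodes I kappa B zeta, a nuclear I kappa B protein that helps switch on secondary response genes, among them targets of IL-17 (ENSMUSG00000035356, chromosome 16, 55811375 to 55838899, minus strand). It had 34.8, 52.2 and 79.9 CPM with PBS and 44.9, 41.3 and 68.4 CPM after Candida albicans. The spread within each group was larger than the difference between them, and replicate 3 was the highest library in both. Its log2 fold change was -0.11 (95% interval -0.92 to 0.70, adjusted p 0.84 in edgeR's test), and it was 0.30 without PBS replicate 3 and -0.36 without Candida albicans replicate 3.

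Bcl3, a nuclear I kappa B protein that works with p50 and p52 (ENSMUSG00000053175, chromosome 7, 19808462 to 19822770, minus strand), had 58.8, 64.1 and 83.8 CPM with PBS and 61.2, 61.7 and 70.6 CPM after Candida albicans. Replicate 3 was again the highest in each group, and the ranges overlapped. Its log2 fold change was -0.09 (95% interval -0.47 to 0.28, adjusted p 0.70 in edgeR's test), and it was 0.11 without PBS replicate 3. A predicted gene on the opposite strand, Gm16174, overlaps Bcl3 by 2073 bases and had 2.24% as many reads.

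Of the target genes, Birc3 was higher in every Candida albicans library, while the groups overlapped for Icam1. Birc3 encodes cIAP2, a ubiquitin ligase that protects cells from death and sustains TNF receptor signalling (ENSMUSG00000032000, chromosome 9, 7848699 to 7873186, minus strand). It had 48.5, 31.7 and 35.6 CPM with PBS and 61.9, 53.5 and 66.4 CPM after Candida albicans. Every Candida albicans library was above every PBS library, and the log2 fold change was 0.65 (95% interval 0.21 to 1.09, adjusted p 0.095 in edgeR's test). Without PBS replicate 1 it was 0.97 with an adjusted p of 0.017 in edgeR's test, a fit that called 15.7% of all genes. Over all alternatives (edgeR, limma-voom and DESeq2) the adjusted p of Birc3 lay between 0.017 and 0.26.

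Icam1 encodes an adhesion molecule that binds the leukocyte integrins LFA-1 and Mac-1 (ENSMUSG00000037405, chromosome 9, 21015985 to 21028817, plus strand). It was the scarcest of the 10, with 5.82, 5.46 and 3.22 CPM with PBS and 6.47, 1.43 and 1.53 CPM after Candida albicans. Candida albicans replicate 1 was the highest of all 6 libraries and replicates 2 and 3 were the lowest. Its log2 fold change was -0.62 (95% interval -2.16 to 0.92, adjusted p 0.52 in edgeR's test). Without Candida albicans replicate 1 it was -1.70, and without replicate 2 it was -0.27. B cell markers were lowest in the same 2 libraries, and their summed level was 281, 176 and 92.2 CPM in PBS replicates 1 to 3 and 279, 3.14 and 3.56 CPM in Candida albicans replicates 1 to 3. All 10 B cell markers had a negative log2 fold change, and 1 of 10 was at 0 counts in each of Candida albicans replicates 2 and 3. Smooth muscle and fibroblast markers were also lowest in these libraries. They summed to 1792, 234 and 206 CPM and to 185, 45.1 and 11.5 CPM in Candida albicans replicates 1 to 3. With PBS the sums were 524 to 7055 CPM and 102 to 751 CPM. Both sums were lowest in PBS replicate 2, while Icam1 was lowest in PBS replicate 3. Other marker lists did not follow Icam1. Endothelial markers summed to 35.2 CPM in Candida albicans replicate 2, beside 28.7 to 51.0 CPM with PBS. T cell markers summed to 89.4 and 78.0 CPM in Candida albicans replicates 2 and 3, beside 60.2 to 96.6 CPM with PBS. With a covariate for smooth muscle markers the log2 fold change of Icam1 was 0.0075 (SE 0.55). With 6 libraries this fit cannot separate smooth muscle from B cell and fibroblast markers, which were lowest in the same 2 libraries. The part of these cell types in the Icam1 values was not tested.

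Of the chemokine genes, Cx3cl1 was the more abundant, and its groups did not overlap, as for 35.6% of all tested genes. Both encode chemokines made as membrane-anchored proteins that proteases can shed. Cx3cl1 encodes fractalkine, the ligand of CX3CR1 on macrophages (ENSMUSG00000031778, chromosome 8, 94772009 to 94782427, plus strand). It had 188, 170 and 123 CPM with PBS and 227, 217 and 242 CPM after Candida albicans, and the Candida albicans libraries lay close together. Its log2 fold change was 0.51 (95% interval 0.08 to 0.95, adjusted p 0.13 in edgeR's test). Cx3cl1 passed the adjusted threshold under 0 of 19 alternatives.

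Cxcl16 encodes the ligand of CXCR6 on T cells and innate lymphocytes (ENSMUSG00000018920, chromosome 11, 70453983 to 70459984, minus strand). It had 24.1, 16.1 and 12.7 CPM with PBS and 30.0, 17.96 and 17.90 CPM after Candida albicans. Replicate 1 was the highest in each group, and the groups overlapped. The log2 fold change was 0.32 (95% interval -0.43 to 1.06, adjusted p 0.50 in edgeR's test), and it was 0.03 without Candida albicans replicate 1 and 0.72 without PBS replicate 1. Cxcl16 overlaps Zmynd15 by 552 bases on the opposite strand, which had 11.4% as many reads.

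The receptor genes were scarce: Cx3cr1 ranged from 1.68 to 2.71 CPM and Cxcr6 from 0.945 to 2.37 CPM over the 6 libraries. The genes of the sheddases ADAM10 and ADAM17 had 116 ± 14.5 and 33.81 ± 1.201 CPM with PBS and 141 ± 8.54 and 37.8 ± 3.09 CPM after Candida albicans. Their log2 fold changes were 0.28 and 0.16, with adjusted p values of 0.22 and 0.34 in edgeR's test.

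**Figure D2:**
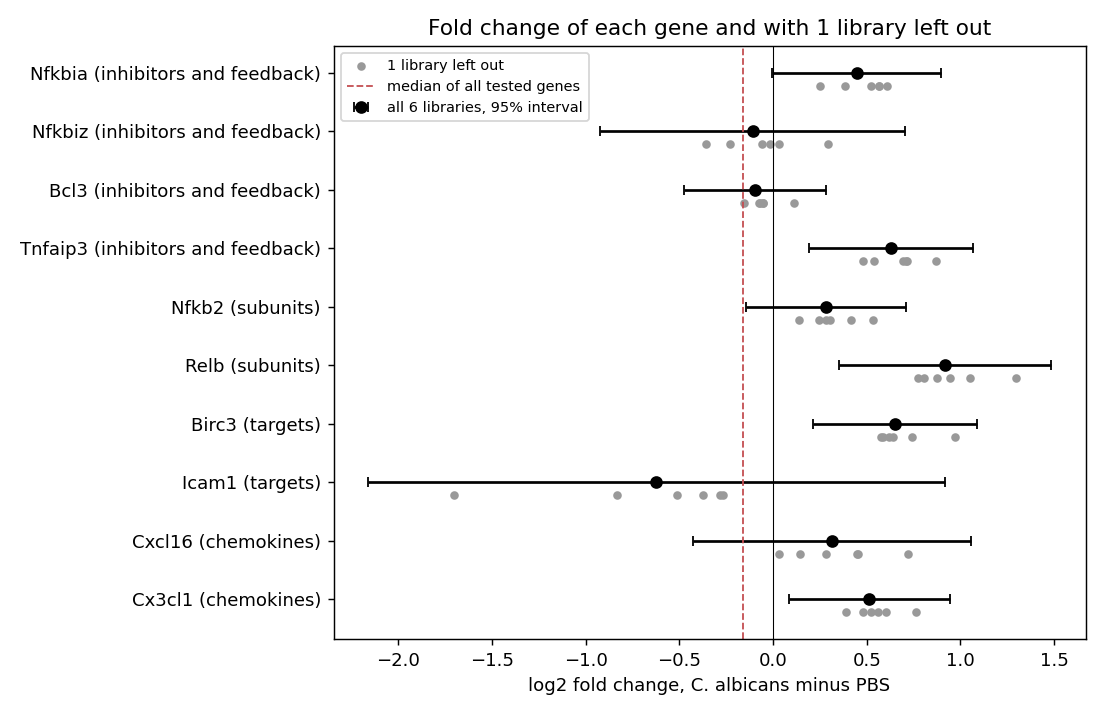
Log2 fold change (Candida albicans minus PBS) of each gene with its 95% interval over all 6 libraries (black) and with each library left out in turn (grey), beside the median of all tested genes, -0.16 (dashed). The intervals of Relb, Birc3, Tnfaip3 and Cx3cl1 lie above 0, unadjusted for the number of genes, and the grey points of Nfkbiz and Bcl3 fall on both sides of 0.

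Per kilobase of gene length, Cx3cl1 and Nfkbia were the most abundant of the 10 in both groups and Icam1 the least. With PBS, Cx3cl1 had 40.8 ± 8.48 CPM per kilobase, Nfkbia 38.1 ± 4.81, Bcl3 27.8 ± 5.33 and Relb 19.1 ± 5.42. Each gene's range overlapped that of the next in the order, down to Cxcl16 at 5.83 ± 1.95, and only Icam1 at 1.11 ± 0.32 lay apart from its neighbour. With Candida albicans, Relb came next after Nfkbia at 36.2 ± 6.94 CPM per kilobase, above Bcl3 at 26.1 ± 2.12, and the ranges of Relb and Bcl3 did not overlap. Birc3, at 12.1 ± 1.31 CPM per kilobase with Candida albicans and 7.71 ± 1.76 with PBS, passed Nfkbiz in the order, but their ranges overlapped in both groups.

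The other 180 genes of the pathway and chemokine lists had no member past the adjusted threshold. At an unadjusted p under 0.05, 23 of the 152 tested were higher and 15 were lower, beside 13.4% higher and 16.2% lower among all tested genes, and their median log2 fold change was -0.19. The same shares of all genes stand behind each count by role given here at that level. Past the adjusted threshold, the DESeq2 Wald test called 22 of the 138 it tested, beside 20.2% of all genes, and limma-voom called 0. Of 22 receptors tested, edgeR without adjustment called 1 higher and 6 lower (p under 0.05), with a median log2 fold change of -0.63. The higher one was Tnfrsf11a, which encodes RANK, a receptor that feeds the non-canonical branch. It had 43.3 ± 1.73 CPM with PBS and 68.7 ± 15.4 CPM after Candida albicans, and edgeR's adjusted p was 0.086. Nod1, a sensor of bacterial cell walls, had a log2 fold change of -0.99 (adjusted p 0.10 in edgeR's test). Il1rap, the shared chain of IL-1 family receptors, had -0.86 and the TNF receptor gene Tnfrsf1b -0.69.

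At an unadjusted p under 0.05, adaptors and kinases had 9 of 33 higher and 2 lower, beside 13.4% and 16.2% of all tested genes, with a median log2 fold change of -0.02. Irak2, a kinase of the Toll-like and IL-1 receptor complex, had 69.6 ± 14.1 CPM with PBS and 118 ± 20.3 CPM after Candida albicans, and its relative Irak1 had 39.9 ± 6.84 and 23.7 ± 1.64 CPM. The groups did not overlap for either gene, and edgeR's adjusted p values were 0.085 and 0.078. Ticam1, which encodes the TRIF adaptor, and Tbk1, a kinase it recruits, had log2 fold changes of 0.60 and 0.58.

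At the same level, other inhibitors had 5 of 19 higher and 2 lower. Cyld, a deubiquitinase that restrains the pathway, had 40.3 ± 2.26 CPM with PBS and 53.5 ± 0.31 CPM after Candida albicans, and Zfp36, whose product destabilises cytokine RNAs, had 191 ± 50.9 and 340 ± 20.3 CPM. Nfkbib, which encodes I kappa B beta, had a log2 fold change of 0.46 and Traip -1.45. The adjusted p values of these 4 genes lay at 0.081, 0.089, 0.13 and 0.098 in edgeR's test.

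At that level too, 5 of 30 other targets tested were higher and 3 were lower. Cflar, which encodes the caspase-8 inhibitor c-FLIP, had 89.1 ± 7.59 CPM with PBS and 123 ± 3.38 CPM after Candida albicans. Nuak2, a kinase gene, had a log2 fold change of 0.95, the iron importer gene Slc11a2 0.84 and Tnfaip8 -1.11. The adjusted p values of these 4 were 0.081, 0.081, 0.089 and 0.073 in edgeR's test.

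Of 16 other chemokine genes tested, 3 were higher and 1 was lower at the unadjusted level. Ccl25, made by the small intestinal epithelium to hold CCR9-bearing lymphocytes, had 457 ± 48.4 CPM with PBS and 744 ± 25.5 CPM after Candida albicans (log2 fold change 0.70, adjusted p 0.079 in edgeR's test). Ccl20, which draws CCR6-bearing cells, had 0.416, 0.744 and 0.714 CPM with PBS and 3.65, 0.998 and 11.4 CPM after Candida albicans, without overlap. Cxcl11 had a log2 fold change of 0.88 and Ccl22 -1.75, with adjusted p values of 0.14 and 0.17 in edgeR's test. Of the 33 other chemokine genes, 17 were below the filter. The neutrophil chemokine genes Cxcl1 and Cxcl2 did not exceed 0.143 and 0.227 CPM in any library, and Cxcl5 had no count in any. The limit that a count of 0 allows, taken as 3 counts, was 0.113 to 0.148 CPM per library, for counting error only. Neutrophil markers were scarce, with 1 of 8 past the filter and a summed level of 0.556 to 10.5 CPM with PBS and 0.509 to 1.04 CPM after Candida albicans.

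The ligand genes of the pathway were scarce or varied between libraries. Tnf had 1.11 ± 0.28 CPM with PBS and 0.517 ± 0.38 CPM after Candida albicans, and Il17a had no count in any library. Il33, an alarmin gene, had 14.1 ± 8.16 and 33.04 ± 10.03 CPM (log2 fold change 1.23, adjusted p 0.18 in edgeR's test), and Il18 had 0.69. Tnfsf12, which encodes TWEAK, had -0.80. No ligand was called at an unadjusted p under 0.05 in either direction, out of 10 tested. Of 19 chemokine receptors and sheddases, 0 were higher and 1 was lower at that level: Ackr4, a receptor that scavenges CCL19, CCL21 and CCL25, with a log2 fold change of -1.67. Cxcr3 had -0.75.

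**Figure D3:**
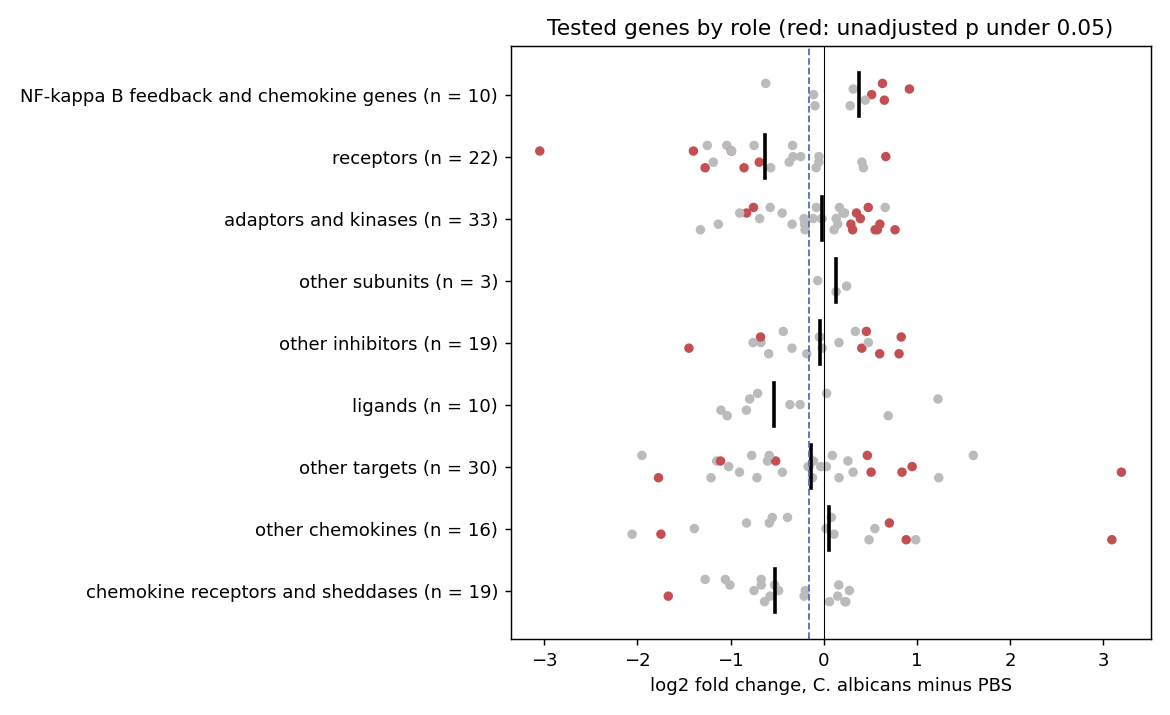
Log2 fold change (Candida albicans minus PBS) of every tested gene by role, with genes at an unadjusted p under 0.05 in red, list medians as black bars and the median of all tested genes, -0.16, as a dashed line. The median of the 10 genes is 0.38, and the medians of receptors, ligands and chemokine receptors are -0.63, -0.54 and -0.53.

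Within the groups, replicate 3 held many of the extreme values. Of the 10 genes, 8 had their highest Candida albicans value in replicate 3 (all but Icam1 and Cxcl16), where 28.6% of all tested genes had theirs. With PBS, 7 of 10 were highest in replicate 1, where 36.7% of tested genes were, and 7 of 10 were lowest in replicate 3, where 29.4% were. Nfkbiz and Bcl3 went the other way, highest in PBS replicate 3 and lowest in PBS replicate 1.

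Further genes of the lists, chosen after their values were seen, stood out in Candida albicans replicate 3. Nos2, the inducible nitric oxide synthase gene, had 15.002, 6.45 and 19.4 CPM with PBS and 34.1, 69.8 and 270 CPM after Candida albicans. Saa1, which encodes serum amyloid A1, had 39.7, 41.5 and 71.7 CPM with PBS and 31.2, 27.5 and 407 CPM after Candida albicans. Card9, an adaptor gene of fungal recognition, reached 32.3 CPM in Candida albicans replicate 3 and lay between 5.92 and 10.2 CPM in the other 5 libraries. Zc3h12a, which encodes the RNase regnase-1, reached 70.1 CPM there and 51.9 CPM in PBS replicate 3, with 35.6 to 37.6 CPM elsewhere. The log2 fold changes of Saa1, Card9 and Zc3h12a were 1.61, 0.66 and 0.16 with all libraries and -0.79, -0.43 and -0.23 without Candida albicans replicate 3.

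Markers of other cells differed between the same libraries. The summed level of 11 mature enterocyte markers was 10295 to 35526 CPM with PBS and 53615 to 76515 CPM after Candida albicans, without overlap, and all 11 had a positive log2 fold change. The mean log2 CPM of 9 tuft cell markers was 4.79 to 5.20 with PBS and 2.81 to 3.51 with Candida albicans, also without overlap, and crypt and cycling markers were at 4.31 to 4.88 and 3.47 to 4.26. Smooth muscle markers summed to 524 to 7055 CPM with PBS and 206 to 1792 CPM after Candida albicans, and macrophage and dendritic cell markers to 47.6 to 115 and 44.4 to 109 CPM. The share of mitochondrially encoded counts was 5.89% to 8.92% with PBS and 3.19% to 4.63% with Candida albicans. Epithelial markers, led by Krt8 and Vil1, were abundant in every library, with a summed level of 15405 to 26440 CPM. Other gut wall markers were present too, unequally between libraries. In PBS replicate 1 epithelial markers summed to 18043 CPM beside 7055 for smooth muscle and 751 for fibroblast markers. In PBS replicate 3 the sums were 15405, 3493 and 372 CPM in that order. With a covariate for the smooth muscle markers, Relb, Birc3 and Tnfaip3 had log2 fold changes of 0.98, 0.81 and 0.48, Cx3cl1 0.49 and Cxcl16 0.77. In that fit 3 of the 10 genes, Relb, Birc3 and Cxcl16, had an unadjusted p under 0.05 and Tnfaip3 and Cx3cl1 did not, with 3936 of 16313 genes called in either direction, and no gene of the 10 passed the adjusted threshold. The part of mature enterocytes, tuft cells and mitochondrial content in these differences was not tested.

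**Figure D4:**
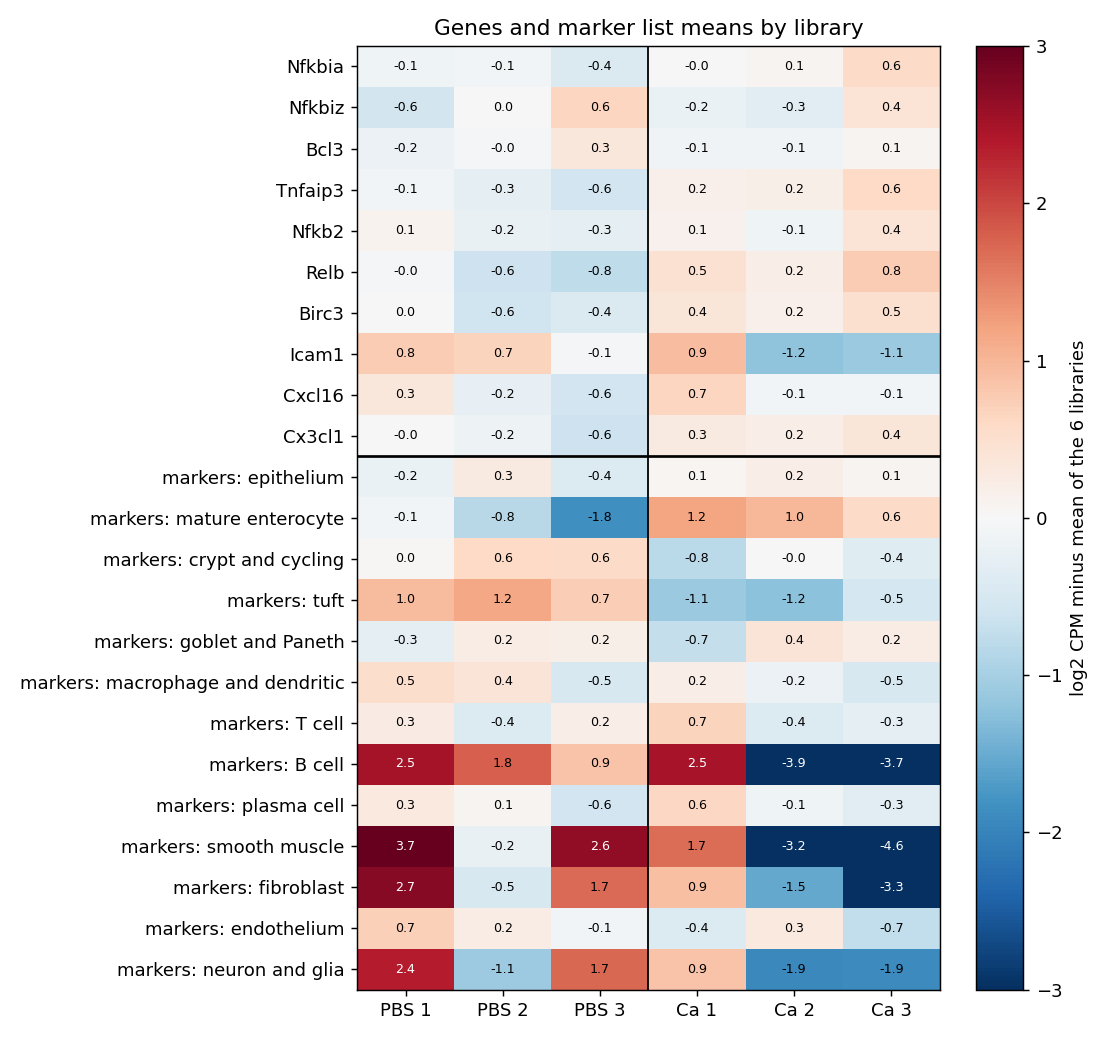
Log2 CPM of each of the 10 genes (top) and mean log2 CPM of marker lists (bottom), each minus its mean over the 6 libraries, in PBS and Candida albicans (Ca) replicates 1 to 3. Colours end at 3 in either direction. Most of the 10 genes are highest in Candida albicans replicate 3, and mature enterocyte markers separate the groups. Icam1 is lowest in Candida albicans replicates 2 and 3, as are the B cell, smooth muscle, fibroblast, and neuron and glia markers. Endothelial and T cell markers are not lowest in both.

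Relb and Bcl3 lie on either side of Apoe on chromosome 7. Relb ends 66671 bases before Apoe starts and Bcl3 begins 109274 bases after Apoe ends, so both are close to the locus that was altered in all 6 libraries. Apoe itself was counted at 59.2 to 106 CPM with PBS and 51.8 to 76.0 CPM after Candida albicans. The deposited counts do not show which part of the gene was altered.

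The genes whose levels followed each of the 10 most closely over the 6 libraries were sought among 9953 named genes with a mean of 5 CPM or more. By Pearson's r of log2(CPM + 1) the nearest was Dido1 for Relb, Kidins220 for Birc3, Acp5 for Tnfaip3, Sgms2 for Cx3cl1 and Ier5 for Nfkbia. It was Lcp1 for Icam1, Crlf3 for Cxcl16, Zfp467 for Nfkb2, Opa3 for Nfkbiz and Golgb1 for Bcl3. As 6 libraries in 2 groups give high values for many genes, 806 genes had r over 0.9 with Relb and 40 with Nfkb2, and these names are descriptions only.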

How the data were processed

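PolyA RNA of intestinal epithelium was sequenced in 3 Candida albicans and 3 PBS libraries. The authors deposited raw read counts per Ensembl gene, with gene length and mm10 coordinates. Trim Galore 0.6.7, HISAT2 2.2.1 and featureCounts 2.0.1 come from the submitters' processing notes. Tool parameters, annotation release and strand setting were not given in the sources used here, so reads of overlapping genes on opposite strands cannot be told apart. Totals were 21406930 to 24891735 counts per library.

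The counts were tested with edgeR 4.0.16 in R 4.3.3 (filterByExpr with minimum count 10 and minimum total 15, which kept 16313 of 29031 genes with a count; TMM scaling; quasi-likelihood test with robust fitting, two-sided, group only, Benjamini-Hochberg adjustment over all tested genes, threshold 0.05). Intervals of log2 fold changes are 95% intervals from the F statistic, and log2 CPM uses a prior count of 2. Alternatives used DESeq2 1.42.0, limma 3.58.1, other scalings, filters and covariates, and each library left out.

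The 10 genes and all lists were chosen with earlier results of these data known. All 10 are named. In each pathway list with no gene past the threshold, up to 4 genes of lowest p with a mean of 1 CPM or more in either group are named. Genes named for any other reason are given as levels or said to be chosen after their values were seen. The consensus was searched on both strands.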

Additional observations from a re-analysis of the deposited data

How the results depend on the processing

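Relb, Birc3, Tnfaip3, Nfkbia, Nfkb2, Cxcl16 and Cx3cl1 had a positive log2 fold change under all 19 alternatives. Replacing TMM with library totals moved the median of all genes from -0.16 to -0.45. Of the 10 genes, 0 passed the adjusted threshold with edgeR (4 at an unadjusted p under 0.05), 3 with the DESeq2 Wald test, 2 with limma-voom with quality weights, 2 with the replicate block, 3 without replicate 1 of both groups, and 0 to 3 with single libraries left out. Those called were Relb and Birc3 in each case, with Tnfaip3 where there were 3. For all genes the count was 0 with edgeR, 3 with upper quartile scaling, 188 with library totals, 2911 with the DESeq2 Wald test, 2569 with quality weights, 552 with no count filter, 43 at a mean of 5 CPM or more, 2080 with the replicate block, 42 with a smooth muscle covariate, 2110 without replicate 1 of both groups and 0 to 2620 with single libraries left out. For the pathway lists it was 0 with edgeR, 1 with library totals, 22 with DESeq2, 25 with quality weights, 4 with no count filter, 15 with the replicate block, 21 without replicate 1 of both groups and 0 to 15 with single libraries left out. The upper limits came without PBS replicate 1, and the cause was not tested. Of the calls at an unadjusted p under 0.05, 45.2% were higher under TMM, 54.5% under DESeq2 size factors and 13.8% under library totals.

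Log2 fold changes turned sign for Rela (0.013 with DESeq2 size factors, 0.013 in the Wald test and 0.021 with the covariate) and, under library totals, for Rel (-0.029), Nfkb1 (-0.14), Adam17 (-0.12) and Zc3h12a (-0.12). With the covariate they turned for Icam1 (0.0075), Tnfsf12 (0.30), Saa1 (-0.83), Card9 (-0.71) and Zc3h12a (-0.23), and Saa1 had -0.0044 with quality weights. With single libraries left out, Rela ran from -0.13 (without Candida albicans replicate 1) to 0.055 (without PBS replicate 1), Nfkbiz from -0.36 to 0.30 and Bcl3 from -0.16 to 0.11 (both highest without PBS replicate 3), and Saa1 from -0.79 to 2.11, Card9 from -0.43 to 1.05 and Zc3h12a from -0.23 to 0.38 (all 3 lowest without Candida albicans replicate 3). The cause was not tested. The replicate numbers are not shown to pair the libraries: deviations from the group means correlated at 0.58, 0.36 and 0.05 for numbers 1 to 3, and PBS replicate 2 correlated best with Candida albicans replicate 3 (0.41). Icam1 was not tested at a mean of 5 CPM or more.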
